A study of Mus musculus with 6 samples.

Results

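The extracellular matrix genes described here encode fibronectin and the fibulins, elastic fibre glycoproteins, laminins and their linkers, matricellular proteins, the small leucine-rich proteoglycans and versican, and a few further matrix glycoproteins. They are 42 genes taken by name, a list drawn up with earlier results of these data known, and all their probes on the array were used. Of these, 39 had at least 1 probe (87 probes in all, among 45281 on the array and 19057 named genes), and Efemp2, Fbn1 and Fbn2 were not analysed here. A probe was tested if it was detected, with a detection p under 0.05 against the negative controls, on all 3 arrays of at least 1 cell line, which left 19 of the 39 genes and 8933 genes in all.

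RNA was compared between 3 samples of parental ID8, a mouse ovarian epithelial papillary serous carcinoma line, and 3 samples of ID8-M, a line raised from it in vivo. For ID8-M, parental cells were placed in the peritoneal cavity of 8-week-old female C57BL/6 mice, and cells were recovered from the bloody ascites after 12 weeks, cloned from plates and passaged. Both lines share the C57BL/6 background, female sex and ovarian origin, and were cultured alike in high-glucose medium with 4% serum, insulin, transferrin and selenite. The labels give no number of clones or mice behind ID8-M and do not say that the 3 samples of a line were separate cultures, so the p-values measure the spread between these samples, which may be technical. All 6 samples shared 1 bead chip, on which parental samples took the first positions, so chip position and line cannot be told apart. Only cultured cells were measured.

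Arrays detected between 16386 and 17186 probes and correlated at 0.9933 to 0.9946 within a line and 0.9673 to 0.9704 between lines. Of 10 epithelial markers with a probe, 7 were detected on all 6 arrays, among them the keratins Krt7, Krt8, Krt18 and Krt19 and the mesothelial surface protein Msln, whereas Epcam and Lhx9 were detected on no array and Pax8 on 1. Of the 7, Krt7, Krt8, Krt18, Krt19 and Upk3b were called higher in ID8-M, and Cdh1, the epithelial cadherin, was called lower (log2 difference −0.61 ± 0.11, SE, limma adjusted p = 0.00468). These differences were not adjusted for the median log2 difference over the tested genes of each chromosome. Those medians ran from −0.31 on chromosome 8 to 0.36 on chromosome 15. The summed signal of the 10 markers, on the log2 scale, was 14.44 to 14.53 in parental ID8 and 15.17 to 15.29 in ID8-M. Fibroblasts are the main makers of many of these matrix genes in tissue, and 8 of 9 fibroblast markers, Col1a2, Col3a1, Pdgfra, Pdgfrb, Thy1, Fap, Dpt and Pi16, were detected on no array. The exception, Col1a1, was detected on all 6 and differed by −0.10 ± 0.23 (SE). The summed fibroblast signal was 8.15 to 8.41 in parental ID8 and 8.25 to 8.27 in ID8-M. The macrophage sum was 9.33 to 9.47 and 9.05 to 9.17, with Ptprc, Adgre1, Lyz2 and Itgam detected on no array and Cd14 detected on all and lower in ID8-M by −0.35 ± 0.09 (SE, limma adjusted p = 0.0243). Mrc1 was detected on 1 ID8-M array. Each sum includes the background level of its undetected markers, so it is no separate readout of a cell type. The part of these cell types in the matrix results was not tested.

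Matrix glycoproteins are secreted and assembled outside the cell, where they give tissue its structure and hold growth factors. Laminins are trimers of an alpha, a beta and a gamma chain that polymerise at the cell surface, and nidogens, perlecan and agrin tie this layer to collagen IV and to cell receptors. Decorin and biglycan are small proteoglycans that bind collagen fibrils and growth factors of the TGF-beta family. Ovarian cancer cells that spread in the peritoneal cavity meet its mesothelial lining and the matrix beneath it.

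The promoters of 26 of the 42 genes are in the RefSeq table used (GRCm38.p6), and 4 are shown because their genes differed between the lines in opposite directions: Ecm1 and Fbln1 were higher in ID8-M, and Hspg2 and Bgn were lower. Each sequence holds the 250 bases before the annotated start, read 5′ to 3′ on the gene's strand, and capitals mark every match, on either strand, to TATAAA (the TATA box), GGGCGG (the GC box), CCAAT or TGANTCA (the AP-1 site). Of all 32851 promoters of this length, 12.4% held the first, 32.7% the second, 33.8% the third and 6.75% the last. For Fbln1, the downstream one of its annotated starts is shown, and the window of the other held no match to any of these motifs.
Ecm1 (chr3:95739570-95739819, minus strand): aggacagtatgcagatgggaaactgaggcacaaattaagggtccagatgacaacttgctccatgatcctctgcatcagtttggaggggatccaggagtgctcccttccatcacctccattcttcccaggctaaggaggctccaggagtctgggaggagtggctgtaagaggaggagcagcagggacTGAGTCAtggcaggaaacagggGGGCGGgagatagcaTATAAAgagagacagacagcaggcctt
Fbln1 (chr15:85205758-85206007, plus strand): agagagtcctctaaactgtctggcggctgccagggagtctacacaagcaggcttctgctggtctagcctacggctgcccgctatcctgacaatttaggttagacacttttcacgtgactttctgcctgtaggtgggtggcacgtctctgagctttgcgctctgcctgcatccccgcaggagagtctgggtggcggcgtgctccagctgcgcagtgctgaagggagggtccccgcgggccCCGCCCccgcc
Hspg2 (chr4:137468553-137468802, plus strand): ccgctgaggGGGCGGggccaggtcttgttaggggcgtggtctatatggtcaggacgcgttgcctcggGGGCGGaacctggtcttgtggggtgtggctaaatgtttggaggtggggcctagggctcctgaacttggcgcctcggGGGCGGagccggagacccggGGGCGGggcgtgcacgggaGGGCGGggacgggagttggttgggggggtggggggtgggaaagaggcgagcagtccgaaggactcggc
Bgn (chrX:73483351-73483600, plus strand): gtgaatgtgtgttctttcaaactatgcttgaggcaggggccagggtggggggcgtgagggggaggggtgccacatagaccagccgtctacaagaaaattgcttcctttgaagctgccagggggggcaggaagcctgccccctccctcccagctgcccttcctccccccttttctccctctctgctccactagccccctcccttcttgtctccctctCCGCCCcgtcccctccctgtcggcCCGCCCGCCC
The Ecm1 promoter held a TATA box 27 bases before the start, a GC box at 42 and an AP-1 site at 64. The promoters of the other 3 genes held GC boxes only, 5 in Hspg2, 3 in Bgn, of which 2 overlap, and 1 in Fbln1. These matches describe the letters of the windows and were not measured by the array.

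Among the 19 matrix genes tested, 5 were higher and 7 lower in ID8-M (limma, Benjamini-Hochberg adjusted p under 0.05 over all tested probes). That is 63.2% of the 19, against 30.8% of all 8933 genes tested, of which 15.4% were called higher and 15.3% lower. The rises were Fbln1, Matn2, Ecm1, Vcan and Dcn, and the falls were Mgp, Lama1, Spon2, Bgn, Fn1, Hspg2 and Lamc1. The median log2 difference over the 19 genes was 0.00, against −0.03 over all genes, and the median size without sign was 0.61 against 0.20. Called rises of at least 2-fold were seen for 3 genes (Fbln1, Matn2 and Ecm1) and falls of that size for 2 (Mgp and Lama1), against 5.29% of all genes tested in either direction. Without background correction, and in the authors' normalized table, 1 of these 5 differed by at least 2-fold, which was Ecm1. A gene detected on every array of 1 line and on no array of the other had to differ, as was the case for Fbln1, Vcan and Lama1. Among tested genes detected on fewer than 6 arrays, 3 of 3 matrix genes were called, against 52.8% of 733 genes. In simulated data most calls on probes that were not detected on all 6 arrays fell on unchanged probes. The changed probes there were drawn among brighter ones, so that share cannot say how many such calls are false here. Among genes detected on all 6 arrays, 3 of 16 matrix genes were called higher and 6 lower, or 56.2%, against 28.8% of 8200 genes. The members were picked with earlier results of these data known, so these shares are a description.

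**Figure D1:**
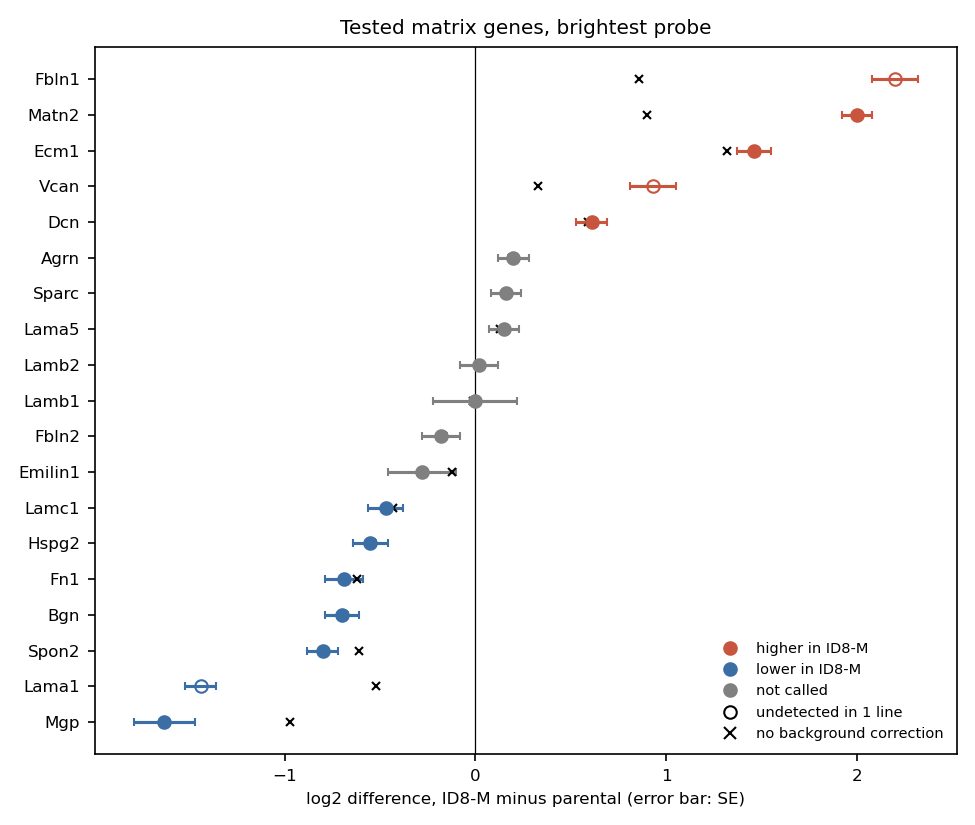
Log2 difference, ID8-M minus parental, of the 19 tested matrix genes (x axis, with standard errors), by each gene's brightest probe. Filled red and blue circles were called higher or lower, grey circles were not called, open circles mark genes undetected in 1 line, and crosses give the difference without background correction. The differences run from −1.63 for Mgp to 2.20 for Fbln1, and for Fbln1, Matn2, Vcan, Lama1, Mgp and Emilin1 the uncorrected difference is smaller than the corrected one by more than 1.5 times.

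Intensities are given on the log2 scale after background correction and quantile normalization, on which the lowest detected signal averaged 5.40, and values of different probes are not compared. Fn1 encodes fibronectin, the adhesive glycoprotein that integrins assemble into fibrils. Its brightest probe read 10.21, 10.47 and 10.40 on the parental arrays and 9.73, 9.71 and 9.57 on the ID8-M arrays. Every ID8-M array lay below every parental array, and Fn1 was 1.62-fold lower in ID8-M (log2 difference −0.69 ± 0.10, SE, limma adjusted p = 0.00132). Its other tested probes were called lower too, by −0.71 ± 0.17 and −1.08 ± 0.14 (−0.34 and −0.37 without background correction).

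Fbln1 encodes fibulin 1, a calcium-binding glycoprotein of basement membranes and elastic fibres that binds fibronectin and laminin. Its brightest probe read 5.02, 4.74 and 5.14 in parental ID8, where it was detected on no array, and 7.33, 7.09 and 7.09 in ID8-M, where it was detected on all 3. In ID8-M Fbln1 was thus higher by at least 3.39-fold (limma adjusted p = 6.87e-06), a bound that sets the ID8-M mean against the lowest detected signals of the parental arrays. The bounds of its dimmer tested probes were 1.42-fold and 1.34-fold, and its other 2 probes were detected on no array. Without background correction the log2 difference of the brightest probe was 0.86 rather than 2.20, since subtracting the background stretches differences of dim probes. That is smaller than the bound, and every bound given here holds on the background-corrected scale only. Fbln1 and Matn2 lie on chromosome 15, where the median over 380 tested genes was 0.36 on the log2 scale, and with that median removed Fbln1 differed by 1.84 and remained called (limma adjusted p = 1.91e-05).

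Fbln2 encodes fibulin 2, a relative with similar partners, and it was detected on all arrays. It read 11.35, 11.57 and 11.30 in parental ID8 and 11.32, 11.21 and 11.17 in ID8-M, so the lines overlapped. The log2 difference of −0.18 ± 0.10 (SE) did not pass the test (limma adjusted p = 0.222), nor did that of its other tested probe (−0.29 ± 0.14). Fbln5 and Efemp1, fibulins of elastic fibres, were detected on no array.

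Most of the genes grouped here as elastic fibre that had a probe were at background in both lines. The fibrillins Fbn1 and Fbn2, of the same group, were not analysed. For comparison, 45.1% of all named genes were detected on no array. Of 5 elastic fibre genes with a probe, Mfap2, Mfap4 and Mfap5, which encode microfibril-associated proteins, were detected on no array. Eln, which encodes elastin itself, was detected on 1 parental array. It read 4.96, 5.04 and 5.37 in parental ID8 and 4.63, 4.73 and 4.81 in ID8-M. Emilin1, a glycoprotein at the interface of elastin and microfibrils, was the exception. It read 6.88, 6.92 and 6.81 in parental ID8 and 6.81, 6.83 and 6.13 in ID8-M, where the third array lay apart from the other 2. Its difference of −0.28 ± 0.18 (SE) was not called (limma adjusted p = 0.286) and was −0.04 ± 0.09 without that array.

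**Figure D2:**
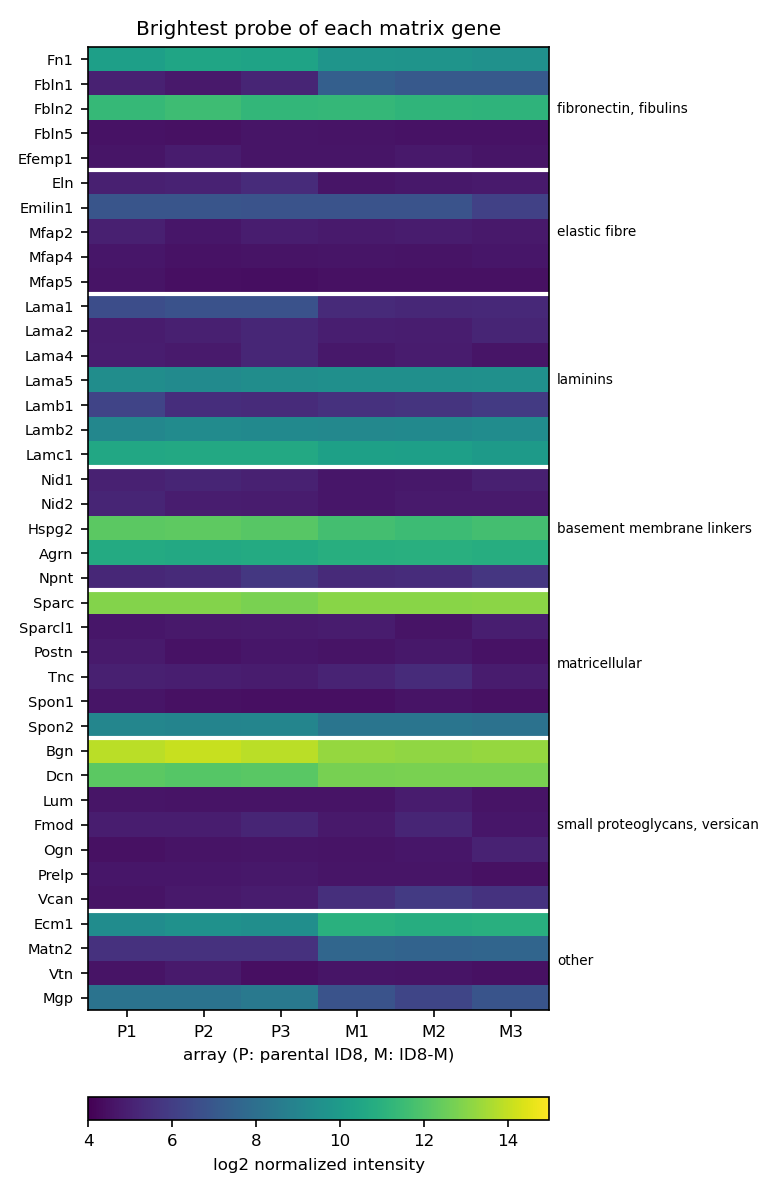
Log2 normalized intensity of the brightest probe of each of the 39 matrix genes with a probe (rows, grouped by role) on the 6 arrays (columns P1 to P3 for parental ID8, M1 to M3 for ID8-M). Dark rows are at background: 18 genes were detected on no array, with no value of theirs above 5.34. Colours show levels within a row across arrays, since probes differ in brightness.

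In all, 20 of the 39 matrix genes had no tested probe, which is 51.3%, against 53.1% of all 19057 named genes. Of these, 18 were detected on no array by any of their 39 probes (46.2% of the 39 genes, against 45.1% of all named genes). They include Postn and Tnc, which encode the matricellular proteins periostin and tenascin C of wounds and tumour stroma, and Lum, Fmod, Ogn and Prelp, small proteoglycans of collagen-rich tissue. Tnc was at background by each of its 7 probes. Vtn, the plasma adhesion protein vitronectin, Spon1 and Sparcl1 were at background as well. No detection by these probes bounds the signal on this array and does not show that a gene was silent.

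Among the laminins, the alpha 1 chain and the gamma 1 chain were lower in ID8-M, and the beta chains and the alpha 5 chain were not called. Lama1, the alpha chain of the first laminin of the embryo, read 6.60, 6.77 and 6.76 in parental ID8 and 5.32, 5.23 and 5.27 in ID8-M. It was detected on all 3 parental arrays and on no ID8-M array, so it was lower in ID8-M by at least 2.52-fold (limma adjusted p = 8.54e-06, by its only probe). The log2 difference was −1.44 ± 0.08 (SE), and −0.52 without background correction, which is smaller than the bound.

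Lamc1, the gamma chain found in most laminin trimers, read 10.60, 10.66 and 10.62 in parental ID8 and 10.25, 10.22 and 10.01 in ID8-M. The lines did not overlap, and the log2 difference of −0.47 ± 0.09 (SE) was called (limma adjusted p = 0.00626). Its other tested probe read 9.68, 9.69 and 9.62 in parental ID8 and 9.51, 9.47 and 9.37 in ID8-M. That probe lay lower on each ID8-M array too, but its difference of −0.21 ± 0.08 did not pass (limma adjusted p = 0.0863), so the call of Lamc1 rests on its brighter probe.

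The 3 other detected laminin chains did not pass the test. Lama5, the main alpha chain of adult epithelial basement membranes, differed by 0.15 ± 0.08 (SE, limma adjusted p = 0.195), and its ID8-M arrays, at 9.49, 9.49 and 9.54, all lay above the parental 9.41, 9.27 and 9.39. Lamb2 differed by 0.02 ± 0.10 and Lamb1 by 0.00 ± 0.22, where the standard error is the larger because the parental arrays of Lamb1 ranged from 5.37 to 6.25. Without parental replicate 1, the highest of these, Lamb1 differed by 0.28 ± 0.11 and was still not called (limma adjusted p = 0.119). Lama2 and Lama4, alpha chains of muscle and vessel laminins, were at background on all arrays by their 3 and 5 probes.

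Of the proteins that link laminin to the rest of the basement membrane, perlecan was lower in ID8-M. Hspg2, which encodes this large heparan sulfate proteoglycan, read 12.24, 12.25 and 12.15 in parental ID8 and 11.70, 11.55 and 11.73 in ID8-M. The arrays of the lines were clear of each other, and Hspg2 was 1.47-fold lower in ID8-M (log2 difference −0.55 ± 0.09, SE, limma adjusted p = 0.00222), with −0.58 ± 0.08 by its other tested probe. Hspg2 and Agrn lie on chromosome 4, where the median over 551 tested genes was −0.19, and with this removed Hspg2 differed by −0.36 and remained called (limma adjusted p = 0.0184).

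Agrn, which encodes agrin, a heparan sulfate proteoglycan that binds laminin and dystroglycan, read 10.72, 10.63 and 10.72 in parental ID8 and 10.89, 10.92 and 10.87 in ID8-M. Each ID8-M array lay above each parental array, yet the log2 difference of 0.20 ± 0.08 (SE) did not pass the test (limma adjusted p = 0.0825). With the chromosome median removed it was 0.40 and called (limma adjusted p = 0.00752). Nid1 and Nid2, the nidogens that bridge laminin and collagen IV, were detected on no array, and Npnt, nephronectin, was detected on 1 parental and 2 ID8-M arrays and not tested.

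**Figure D3:**
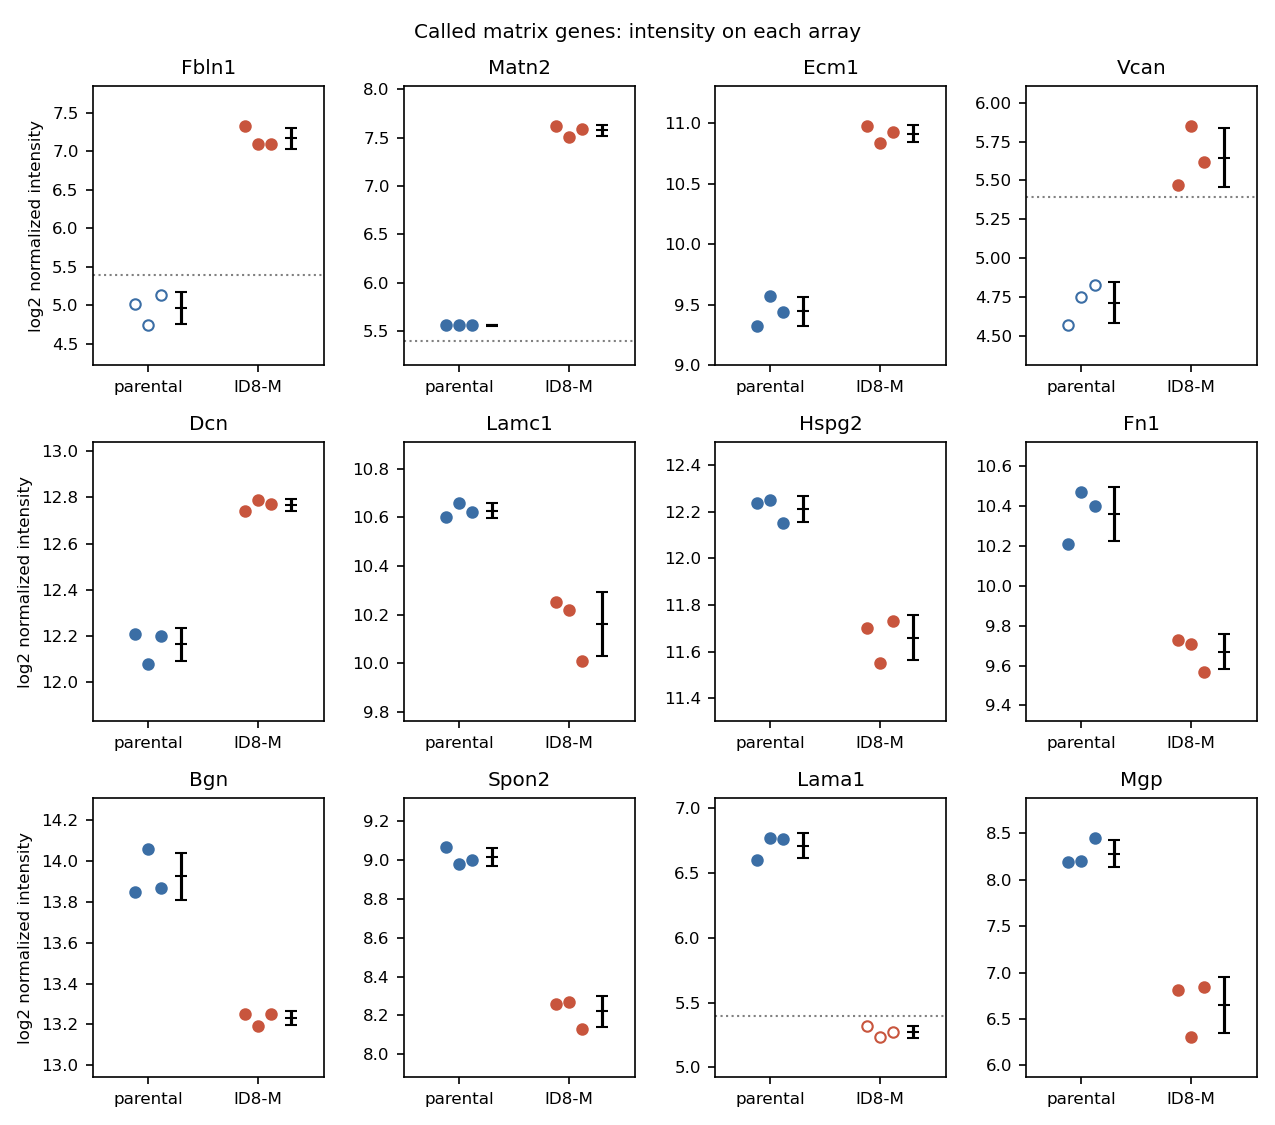
Log2 normalized intensity on each array of the 12 called matrix genes (points, parental ID8 in blue and ID8-M in red), with the mean and standard deviation of 3 arrays beside them. Open points are from a line in which the probe was detected on no array, and the dotted line is the mean lowest detected signal, 5.40, where it is in range. In each panel the 3 arrays of one line lie clear of the 3 of the other, as was so for 48.4% of all tested genes. Only called genes are shown, which makes such separation likely.

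Of the small proteoglycans and versican that were tested, biglycan was lower in ID8-M while decorin and versican were higher. Bgn, which encodes biglycan, read 13.85, 14.06 and 13.87 in parental ID8 and 13.25, 13.19 and 13.25 in ID8-M. All ID8-M arrays were below all parental arrays, and Bgn was 1.62-fold lower (log2 difference −0.70 ± 0.09, SE, limma adjusted p = 0.000738, by its only probe). At this brightness background correction hardly mattered, with −0.69 without it. Bgn lies on the X chromosome, where the median over 272 tested genes was −0.29 on the log2 scale, and with that removed it differed by −0.41 and remained called (limma adjusted p = 0.0118).

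Dcn, which encodes decorin, moved the other way. Its brightest probe read 12.21, 12.08 and 12.20 in parental ID8 and 12.74, 12.79 and 12.77 in ID8-M. The lines were separate on every array, and Dcn was 1.52-fold higher in ID8-M (log2 difference 0.61 ± 0.08, SE, limma adjusted p = 0.000874). Another probe read 10.18, 9.90 and 10.00 against 10.90, 11.02 and 11.05, a difference of 0.96 ± 0.10, and for the remaining pair, at background on the parental arrays, the bounds were 1.42-fold and 1.25-fold. All 4 probes of Dcn were called higher, and with the median of its chromosome, 10, removed the brightest differed by 0.63.

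Vcan encodes versican, a large chondroitin sulfate proteoglycan that binds hyaluronan. By its brightest tested probe it read 4.57, 4.75 and 4.83 in parental ID8, undetected on all arrays, and 5.47, 5.85 and 5.62 in ID8-M, detected on all. Its level was higher in ID8-M by at least 1.18-fold (limma adjusted p = 0.000766), with an uncorrected log2 difference of 0.33. Another probe was detected in ID8-M alone, on 2 arrays, at 5.16, 5.62 and 5.73 in ID8-M, and its other 4 probes were detected on no array. The signal of Vcan was thus close to the detection limit in ID8-M.

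**Figure D4:**
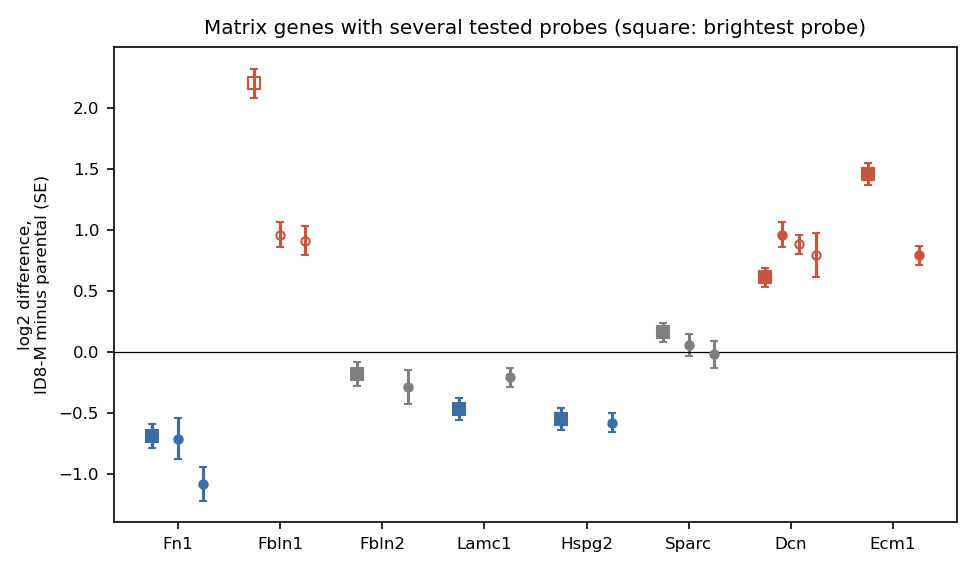
Log2 difference, ID8-M minus parental, with standard errors, of every tested probe of the 8 matrix genes that had more than 1 tested probe. Squares are the brightest probe of a gene, circles its other probes, red and blue mark probes called higher or lower, grey marks probes not called, and open symbols probes undetected in 1 line. The probes of Fn1, Fbln1, Hspg2, Dcn and Ecm1 were all called in 1 direction per gene, Lamc1 was called by 1 of 2 probes, and those of Fbln2 and Sparc were not called.

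Matricellular proteins modulate how cells sit on matrix rather than building it. Sparc, a collagen-binding member that shapes collagen assembly, read 12.95, 12.95 and 12.79 in parental ID8 and 13.04, 13.06 and 13.08 in ID8-M. Although the arrays did not overlap, the difference of 0.16 ± 0.08 (SE) did not pass (limma adjusted p = 0.182), and its 2 other probes differed by 0.06 ± 0.09 and −0.02 ± 0.11 with overlapping arrays. Among all tested genes, 48.4% had arrays that did not overlap between lines, so this separation is common here.

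Spon2, spondin 2 or mindin, a secreted protein with a role in innate immune recognition, read 9.07, 8.98 and 9.00 in parental ID8 and 8.26, 8.27 and 8.13 in ID8-M. The lines were well apart and Spon2 was 1.74-fold lower in ID8-M (log2 difference −0.80 ± 0.08, SE, limma adjusted p = 0.000223). Its other probe was detected on no array.

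Among the remaining glycoproteins, Ecm1 and Matn2 were higher in ID8-M and Mgp was lower, and among the matrix genes tested and detected in both lines these were the largest differences. Ecm1 encodes extracellular matrix protein 1, a secreted glycoprotein that binds perlecan and fibulins. It read 9.33, 9.57 and 9.44 in parental ID8 and 10.98, 10.84 and 10.93 in ID8-M. It was 2.76-fold higher (log2 difference 1.46 ± 0.09, SE, limma adjusted p = 1.36e-05), and its other probe, detected on all arrays, was higher by 0.79 ± 0.08 (0.29 without background correction).

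Matn2 encodes matrilin 2, an adaptor that joins collagen and other filaments. It read 5.57, 5.56 and 5.56 in parental ID8, just above the detection limit, and 7.62, 7.51 and 7.59 in ID8-M. It was 4.01-fold higher in ID8-M (log2 difference 2.00 ± 0.08, SE, limma adjusted p = 7.89e-07), and by 0.90 without background correction. With the median of chromosome 15 removed it differed by 1.64. Another probe of Matn2, detected on 2 arrays of each line and not tested, read 5.67, 5.25 and 5.45 against 5.67, 5.35 and 5.82, so that its lines overlapped, and a further probe was at background. The rise of Matn2 therefore rests on 1 of its 3 probes.

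Mgp encodes matrix Gla protein, a small inhibitor of calcification that also binds bone morphogenetic proteins. It read 8.19, 8.20 and 8.45 in parental ID8 and 6.81, 6.30 and 6.84 in ID8-M. This was 3.09-fold lower in ID8-M (log2 difference −1.63 ± 0.16, SE, limma adjusted p = 0.000151, by its only probe), and −0.97 without background correction. The spread among ID8-M arrays, 0.30 (SD, n = 3), was the widest of the 12 called genes, and the gap between the lines exceeded it.

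Genes that modify, cross-link, bind or cut these matrix proteins changed in both directions. Genes of elastic fibres, matrix cross-linking and procollagen processing gave 2 rises and 4 falls among 9 tested genes (66.7%, against 30.8% of all genes). Loxl1, a lysyl oxidase that cross-links elastin, fell by 2.18 ± 0.08 (SE, log2) and Lox, the founding lysyl oxidase, fell by 1.02 ± 0.11, while Tgm2, a transglutaminase that cross-links fibronectin, rose by 0.59 ± 0.07 and Pcolce2, an enhancer of procollagen processing, by 0.33 ± 0.10. The largest limma adjusted p among these 4 was 0.0335, that of Pcolce2. The median of the 9 genes was −0.19.

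Another list held genes for the synthesis, sulfation and desulfation of glycosaminoglycan chains, the sugar part of proteoglycans. It gave 5 rises and 6 falls among 28 (39.3%, against 30.8% of all genes), with a median of −0.13. Of these 11 calls, 3 were of genes undetected in 1 line, which had to differ to be tested: Papss2, Extl1 and Chst7. Papss2, which makes the sulfate donor, was higher in ID8-M by at least 13.4-fold, and at least 9.7-fold higher was Extl1, a relative of the exostosin enzymes that extend heparan sulfate, each undetected on the parental arrays. Their log2 differences without background correction were 2.29 and 2.04, which are smaller than these bounds. Hs6st2, a heparan sulfate 6-O-sulfotransferase, fell by 0.99 ± 0.08 (limma adjusted p = 7.34e-05). Chst7, a chondroitin sulfotransferase, was at least 1.4-fold lower (−0.27 on the log2 scale without background correction).

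Beside the 42 genes, other proteoglycans gave 0 rises and 1 fall among 6 tested (16.7%, against 30.8% of all genes). That fall was of Sdc3, a syndecan, which was detected on no ID8-M array and so had to differ to be tested. Its bound was 1.47-fold, with a log2 difference of −0.29 without background correction. Other matrix glycoproteins gave 0 rises and 4 falls among 13, which is 30.8%, the same share as over all genes. Ltbp1, which anchors latent TGF-beta in the matrix, fell by 1.13 ± 0.19 (SE, log2), and by 0.71 without background correction, and Thsd4, which promotes microfibril assembly, fell by 0.61 ± 0.17 (limma adjusted p = 0.0287). The other 2, Mfap3l and Rspo3, were detected on no ID8-M array, with bounds of 1.4-fold and 1.39-fold. Without background correction their log2 differences were −0.38 and −0.30.

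Of 5 tested basement membrane collagens 3 fell and 0 rose (60%, against 30.8% of all genes called), with a median of −0.64. Chromosome medians, which ran from −0.31 on chromosome 8 to 0.36 on chromosome 15, were not removed from these values. Col4a6 fell by 1.20 ± 0.10 (SE) and Col4a1, an alpha chain of the main collagen IV network, fell by 0.66 ± 0.09 (limma adjusted p = 8.11e-05 and 0.00118). Receptors for laminin, fibronectin and basement membranes, listed together with the secreted Lgals3bp, gave 3 rises and 1 fall among 12, with a median of 0.14. This share of 33.3% was near the 30.8% of all genes. Itgb4, the beta 4 subunit of a laminin-binding integrin, rose by 3.21 ± 0.10 and Lgals3bp, a secreted galectin ligand that binds integrins, by 2.09 ± 0.11, while Itgb1 fell by 0.75 ± 0.12. Without background correction Col4a6 differed by −0.65, Lgals3bp by 1.20 and Itgb1 by −0.49. Of the other laminin chains, Lamb3 and Lamc3 had a probe but no tested one.

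Proteases that cut these proteins, with their inhibitors, gave 3 rises and 6 falls among 13 (69.2%, against 30.8% of all genes), with a median of −0.16, and 1 of the falls, Adamts15, was of a gene undetected in ID8-M. Mmp13, a collagenase, rose by 0.77 ± 0.09 and Plat, a plasminogen activator, by 0.43 ± 0.07. Mmp2, a gelatinase, fell by 0.91 ± 0.15 and Adamts1, which cuts versican, by 0.84 ± 0.13, though it was detected on 1 ID8-M array and the uncorrected differences were −0.36 and −0.27. Regulators of matrix genes gave 2 rises and 7 falls among 14 (64.3%, against 30.8% of all genes), with a median of −0.28. Tgfb1, a TGF-beta ligand, rose by 0.77 ± 0.15 and Smad3, which carries its signal, by 0.46 ± 0.08, whereas Tgfb2 fell by 1.39 ± 0.09 and Twist2, a mesenchymal transcription factor, was at least 2.76-fold lower by a probe undetected in ID8-M. Without background correction Tgfb1 differed by 0.44, Tgfb2 by −0.84 and Twist2 by −0.74, the last smaller than its bound. Each called gene named here had a limma adjusted p of at most 0.0335, and the lists were chosen with earlier results of these data known. Chromosome medians were not removed from the values of any of these related lists.

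**Figure D5:**
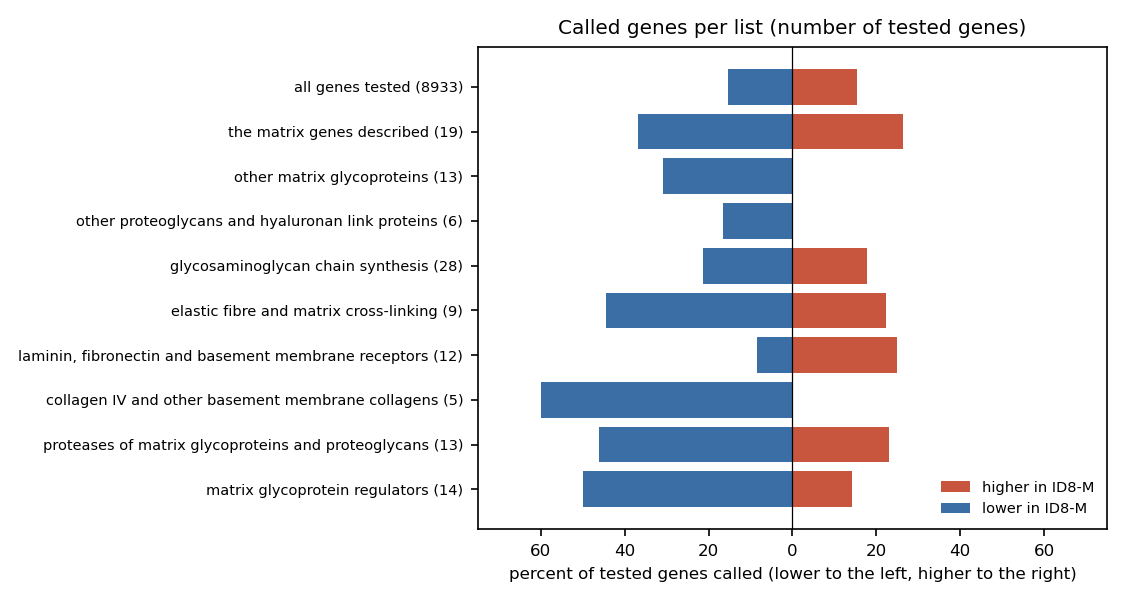
Percent of tested genes called lower (left, blue) or higher (right, red) in ID8-M for all genes, the matrix genes described and 8 related lists, with the number of tested genes in brackets. Among all genes 15.4% were higher and 15.3% lower, and most of the small lists hold fewer than 20 tested genes, so 1 gene moves a bar visibly.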

How the data were processed

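Total RNA was made into biotinylated cRNA and hybridised to bead arrays, per the labels' protocols. For every probe, the deposited non-normalized file holds the mean bead intensity of each array on a linear scale. Per the file headers, it also holds the detection p-value, the number of beads and their standard error. Between 15 and 57 beads stood behind each value of the tested members' brightest probes. A second deposited table holds the authors' normalized intensity, whose values followed plain quantile normalization within 1.68%, and it served as an alternative.

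Here, intensities were background corrected from the detection p-values, normalized by quantiles and taken as log2 (neqc of limma 3.58.1, R 4.3.3, offset of 16). Of 45281 probes, 34885 carried a unique symbol in the annotation of the platform, 18 carried several and 10378 carried none, and 34807 matched a RefSeq gene of GRCm38.p6. Each of 16221 tested probes was tested two-sided in limma, by lmFit followed by eBayes, with p-values adjusted by Benjamini-Hochberg. A gene stands by its brightest tested probe over all 6 arrays. For a probe detected on no array of a line, the difference is a bound against, per array, the lowest detected signal or the probe's own if higher, and holds on the background-corrected scale only.

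The fit was tested on simulated data, in which few calls on probes detected on all 6 arrays were of unchanged probes, but most calls on probes detected on fewer arrays were. The changed probes of that check were drawn among brighter ones, so the latter held few true changes, and the criterion of this check was set on the former after the share over all probes had been seen. The members, the related lists and the markers were chosen with earlier results of these data known. The naming rule gave array values for members called with at least a 1.5-fold difference or a bound, members above 12 on the log2 scale and members whose probes disagree, and from each related list up to 2 called rises and 2 called falls. Array values of Fbln2, Eln, Emilin1, Lama5, Lamb1 and Agrn, and Thsd4, Rspo3, Adamts15 and the markers Cdh1, Cd14, Pecam1 and Cd3e, outside that rule, were added after their values were seen.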

Additional observations from a re-analysis of the deposited data

How the results depend on the processing

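Each of the 12 called matrix genes kept its direction and its call under every one of 16 alternatives in which it was tested: no background correction, an offset of 50, cyclic loess, the authors' normalized table, no filter, a stricter filter, the mean over probes, a robust trended variance, the replicate number as a block, each array left out, and chromosome medians removed. With the filter at a detection p under 0.01 on all 6 arrays, 14 matrix genes were left and 2 were called higher, since Fbln1, Vcan and Matn2, like Lama1 and Lamb1, were no longer tested. Without 1 array, 12 matrix genes were called each time (5 higher and 7 lower), with 3402 to 3844 probes and 2046 to 2295 genes called in all. With the replicate number as a block, 12 matrix genes, 3969 probes and 2330 genes were called. Deviations of same-numbered samples from their line's mean correlated at 0.037, −0.093 and 0.006, so the numbers share no visible pairing. Agrn became called in 5 alternatives (adjusted p down to 0.00752) and Sparc in 1 (0.0422). No background correction and the authors' normalized table gave nearly the same values, so they are not separate checks. For Agrn their limma adjusted p was 0.0237 and 0.0236. The uncalled difference of Lamb2 ranged from −0.04 to 0.08 when 1 array was left out, and changed sign to −0.04 without parental ID8 replicate 1 and to −0.04 without ID8-M replicate 3. The size of dim genes depends on the background correction: without it the log2 difference was 0.86 rather than 2.20 for Fbln1, 0.90 rather than 2.00 for Matn2, 0.33 rather than 0.93 for Vcan, −0.97 rather than −1.63 for Mgp and −0.52 rather than −1.44 for Lama1, and 1 rather than 5 matrix genes differed by at least 2-fold. The uncalled difference of Lamb1 was 0.28 without parental ID8 replicate 1 and that of Emilin1 −0.04 without ID8-M replicate 3. Chip position could not be examined, since each position held 1 array, and 3 arrays per line limit the precision.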

Other observations

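Pecam1, an adhesion receptor of endothelium and blood cells, was detected on every ID8-M array (3 of 3) but at background in parental ID8, and higher in ID8-M by at least 1.47-fold (limma adjusted p = 9.65e-05, log2 difference 0.40 without background correction). As it was undetected in 1 line, it had to differ to be tested. The summed signal of 7 endothelial markers was 7.69 to 7.74 in parental ID8 and 7.90 to 7.99 in ID8-M on the log2 scale, and Cdh5, Tie1, Vwf and Emcn were detected on no array. Kdr was detected on 1 parental array and Tek on 1 ID8-M array. Cd3e, a T cell receptor subunit, was detected on all 6 arrays without a called difference (−0.29 ± 0.22, SE, limma adjusted p = 0.355), while Cd3g, Cd8a and Nkg7 were detected on none. Cd4 was detected on 1 parental array and Ms4a1 on 1 ID8-M array. The lymphocyte sum was 7.88 to 8.19 in parental ID8 and 7.71 to 7.89 in ID8-M. Both sums include the background level of undetected markers. The part of either cell type in the matrix results was not tested.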
